A study of Danio rerio with 14 samples.

Results

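The transcripts described here are those of 4 zebrafish genes that act in the presentation of peptide antigens, cd74a, cd74b, mhc2dab and b2m, in the lateral rectus (LR), an eye muscle that pulls the gaze to the side, before and after injury. They were selected on their gene symbols, among 31014 features, with the group values for uninjured muscle (CON) and for muscle at 9 (H9) and 18 (H18) hours post injury (hpi) already known, so their differences from CON are given as a description and were not tested. The study removed part of the right LR of sexually mature adult zebrafish and followed the remnant through the first hours of regeneration. All groups carried the actin:GFP genotype, a transgene driven by an actin promoter, and each library was pooled LR tissue of several fish, cut from frozen sections of the head by laser microdissection. CON comprised 4 libraries of LR that had not been injured (0 hpi), H9 comprised 5 libraries at 9 hpi and H18 comprised 5 libraries at 18 hpi. The deposited value for a feature is 1 FPKM per group (a fragment count scaled to transcript length and sequencing depth), in which the libraries of the group had been combined. These group values carry no SD, the p- and q-values in the authors' tables were not used here, and so no difference below was set against the spread between libraries and no library was left out.

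Nucleated cells display peptides from their cytosol on MHC class I, a heavy chain held together with the light chain β2-microglobulin, which b2m encodes. The peptides are cut by proteasomes, carried into the endoplasmic reticulum by the TAP transporter and loaded with the help of tapasin. MHC class II, made by macrophages, dendritic cells and B cells, is a pair of an α and a β chain that presents peptides from endosomes. The invariant chain CD74, encoded in zebrafish by cd74a and cd74b, occupies the groove of newly made class II and directs it to endosomes, where legumain and cathepsins degrade it, and mhc2dab encodes a class II β chain. Interferon gamma and the transactivators CIITA and NLRC5 raise the transcription of these genes in mammals.

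Skeletal muscle markers were abundant in CON, where 21 such features summed to 19882 FPKM. That sum was 12.8% of its CON value at H9 and 6.96% at H18, and the summed markers of retina and of glia were lower too (retina 21.8% and 2.02% of CON, glia 34.8% and 20.8%). In CON and H9 the retina sum was mostly rho (26.9 FPKM in CON, 5.75 FPKM in H9 and 0.0843 FPKM in H18). Of the 7 retina features 1 reached a mean of 1 FPKM over the 3 groups. Among the 13447 features with a mean of at least 1 FPKM over the 3 groups, the median log2 ratio, computed here on FPKM + 0.1, was 0.09 for H9 against CON, -0.01 for H18 against CON and -0.15 for H18 against H9. In a bulk tissue, fewer cells of a type and less RNA per cell cannot be told apart, and this applies to each value that follows.

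The 4 genes had lower FPKM after injury than in uninjured LR, at both times. The most abundant was b2m (Entrez 30400, GRCz10 chromosome 4, 12794547 to 12796644), the light chain of class I. Its level was 398 FPKM in CON, 115 FPKM in H9 and 169 FPKM in H18, so it was lowest at 9 hpi and partly higher again at 18 hpi. It was 3.46-fold lower in H9 than in CON and 2.35-fold lower in H18 than in CON. Even so it stayed among the most abundant transcripts, holding rank 122 of all features before injury, 223 at 9 hpi and 173 at 18 hpi.

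The invariant chain genes followed another course. The feature cd74a (Entrez 58113, chromosome 14, 2787480 to 2801244) stood at 159 FPKM in CON, 79.7 FPKM in H9 and 47.6 FPKM in H18. It was 1.99-fold lower than CON at 9 hpi and 3.34-fold lower at 18 hpi, lower at each step. Its paralog cd74b (Entrez 30645, chromosome 21, 33424063 to 33429514) stood at 104 FPKM in CON, 64.9 FPKM in H9 and 40.1 FPKM in H18. The cd74b value was thus the least reduced of the 4 at 9 hpi, 1.60-fold lower than CON, and it was 2.58-fold lower at 18 hpi. The rank of cd74b changed little from CON to H9, from 323 to 333, and then moved to 513 in H18, while cd74a went from rank 248 to 285 and then to 430.

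The class II β chain gene mhc2dab (Entrez 30762, chromosome 8, 36434989 to 36436660) was the least abundant of the 4, with 23.2 FPKM in CON, 6.83 FPKM in H9 and 10.8 FPKM in H18. Like b2m it was lowest at 9 hpi. It was 3.37-fold lower than CON in H9 and 2.14-fold lower in H18, and its rank was 957 before injury, 3231 at 9 hpi and 1808 at 18 hpi. On the deposited FPKM scale, 24.3% of the FPKM lost between CON and H9 was regained by H18 for mhc2dab and 19.1% for b2m. These shares depend on how the groups are scaled, as the comparison of H9 with H18 below shows.

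**Figure D1:**
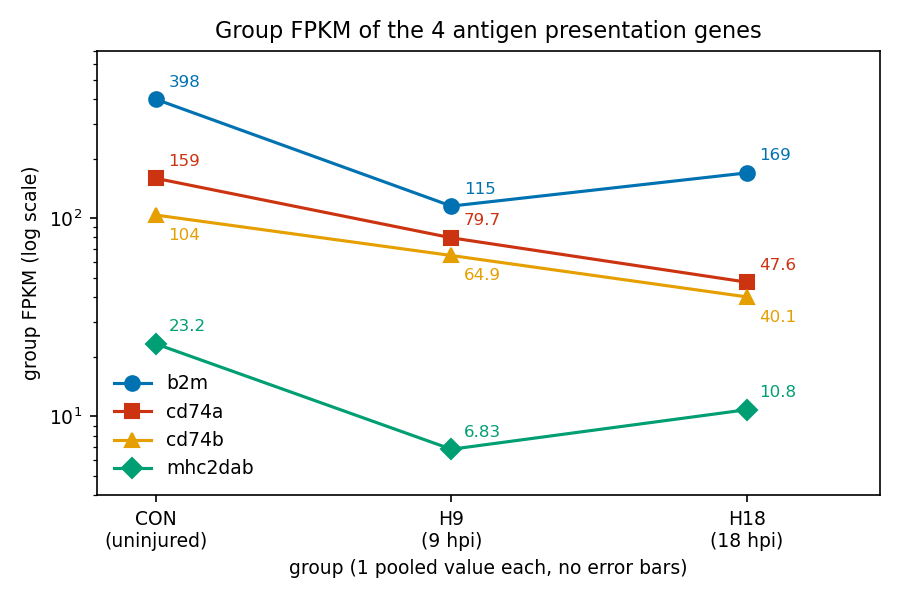
Group FPKM (log scale) of b2m, cd74a, cd74b and mhc2dab in CON, H9 and H18, with 1 pooled value per group and therefore no error bars. The cd74a and cd74b lines go down at both steps, whereas b2m (398, 115 and 169 FPKM) and mhc2dab (23.2, 6.83 and 10.8 FPKM) are lowest at H9.

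All 4 genes had a level of at least 6.83 FPKM in each group and passed the filter on low values in every one of them. At H9, 4 of 4 were lower than CON by at least 1.5-fold, the fold used throughout, where 31.4% of all features were lower by that much and 34.9% were higher. At H18, 4 of 4 were again lower, with 34.7% of all features lower and 32.8% higher. These contrasts were in view when the genes were chosen, and nothing is read from the counts. Dividing each group by its summed FPKM without the 3 features of highest mean FPKM left the 8 ratios against CON below 0, but took cd74b at H9 from a log2 ratio of -0.68 to -0.49, which is under 1.5-fold.

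The comparison of H9 with H18 separated the genes into 2 pairs. The log2 ratio of H18 to H9 was -0.74 for cd74a and -0.69 for cd74b, and it was 0.56 for b2m and 0.66 for mhc2dab. By the 1.5-fold rule 2 of the 4 were lower at 18 hpi than at 9 hpi (24.7% of all features). Of the 4, 1 was higher, mhc2dab (15.5% of all features), with b2m just short of the fold at 1.47. These ratios come from the same group values that were in view when the genes were chosen, and nothing is read from these counts. The order of the 4 ratios does not depend on how the groups are scaled, but their sizes do. Centring on the median of all features gave 0.70 for b2m and 0.80 for mhc2dab, and the rescaling on summed FPKM gave 0.10 and 0.21. The regain of b2m and mhc2dab after 9 hpi therefore has no firm size.

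Ratios between genes of the same group do not change with its scaling. The FPKM of cd74a was 1.53 times that of cd74b in CON, 1.23 times in H9 and 1.19 times in H18. The 2 invariant chain genes together had 11.31 times the FPKM of mhc2dab in CON, 21.2 times in H9 and 8.11 times in H18, so the invariant chain was in largest excess over this β chain at 9 hpi. Against the summed FPKM of all 17 class II chain features the same ratio was 2.80, 4.86 and 2.40. For class I, b2m had 2.46 times the summed FPKM of the 23 heavy chain features in CON, 2.82 times in H9 and 2.55 times in H18. Thus b2m and the summed heavy chains kept a similar proportion in the 3 groups, while the invariant chain and the summed class II chains did not. Single heavy chains and the other light chain gene, b2ml, given below, did not all share the course of b2m.

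Class II chain genes other than mhc2dab were mostly lower after injury. Of 17 class II chain features in the tables, 6 were listed at 0 in every group, mhc2dbb and mhc2dcb among them, and 6 reached a mean of 1 FPKM. The feature next to mhc2dab on chromosome 8, si:busm1-266f07.2 (36440010 to 36442894), carries the current RefSeq symbol mhc2daa and encodes the α chain of the pair. It had 38.1 FPKM in CON, 15.2 FPKM in H9 and 14.2 FPKM in H18, so that unlike mhc2dab it was not higher at 18 hpi than at 9 hpi. The ratio of this α chain to mhc2dab was 1.64 before injury, 2.22 at 9 hpi and 1.31 at 18 hpi.

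Further chains on chromosome 8 showed larger differences. LOC103911540 (mhc2dhb) had 20.3 FPKM in CON, 1.58 FPKM in H9 and 4.59 FPKM in H18, which is 12.2-fold and 4.36-fold lower than CON. A clone-named feature with the current symbol mhc2dgb had 7.87, 0.552 and 1.16 FPKM in the same order. For si:busm1-48c11.3 (mhc2dga) the values were 2.94, 1.69 and 2.68 FPKM, close to CON at 18 hpi. The exception among the class II chains was wu:fd58b11 (mhc2d4b) on chromosome 4, which was higher after injury, at 0.775 FPKM in CON, 3.73 FPKM in H9 and 3.04 FPKM in H18. Summed over the 16 class II chain features other than mhc2dab, the level was 32.5% of CON at H9 and 36.4% at H18.

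Most of the enzymes that process the invariant chain and the antigens of class II had higher FPKM after injury. Legumain (lgmn), an asparaginyl endopeptidase that starts the trimming of CD74, had 21.3 FPKM in CON, 238 FPKM in H9 and 622 FPKM in H18. Cathepsin S, which makes the late cuts in CD74 in mammals, is represented by ctssb.1 (ctss2.1), with 7.09, 138 and 361 FPKM, and by its neighbour ctssb.2 (ctss2.2), with 7.69, 15.5 and 35.3 FPKM. The cathepsin L gene ctsla had 33.8, 209 and 295 FPKM. The thiol reductase GILT (ifi30), which opens disulfide bonds of antigens in lysosomes, was unlike the others in time, with 13.1 FPKM in CON, 13.9 FPKM in H9 and 159.9 FPKM in H18. The cathepsin L family gene ctsl.1 had 1.52, 0.896 and 1.79 FPKM, lower than CON by at least 1.5-fold at H9 and within that fold at H18.

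The 6 enzymes, which are the features of this kind in the class II presentation list that reached 1 FPKM, summed to 727% of CON at H9 and 1744% at H18, while cd74a and cd74b together were at 55.0% and 33.4%. The FPKM of ctssb.1 was 0.027 times that of the 2 invariant chain genes in CON, 0.951 times in H9 and 4.12 times in H18. For lgmn the same ratio was 0.0812, 1.65 and 7.10. These enzymes also work in general lysosomal proteolysis, and the tables do not separate the cells in which they were made.

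Over the class II presentation list, without cd74a, cd74b and mhc2dab, 19 features reached 1 FPKM. At H9, 7 of these were higher and 7 lower than CON, with a median log2 ratio of -0.04 (0.09 over all features), and at H18, 8 were higher and 5 lower, with a median of 0.32 (-0.01 over all features). Among all features 34.9% were higher and 31.4% lower at H9, and 32.8% were higher and 34.7% lower at H18. These medians depend on the filter, since features with a mean of at least 5 FPKM, most of the enzymes among them, had medians of 0.82 at H9 and 2.18 at H18. The list held the enzymes above, regulators and ubiquitin ligases, and nothing is read from its counts. The ligase gene march8, which in mammals takes class II off the cell surface, had 9.65 FPKM in CON, 3.18 FPKM in H9 and 12.6 FPKM in H18. The dendritic and B cell surface gene cd83 (si:ch211-149p10.2), whose protein opposes that removal in mammals, had 0.259 FPKM in CON, 3.60 FPKM in H9 and 5.36 FPKM in H18.

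**Figure D2:**
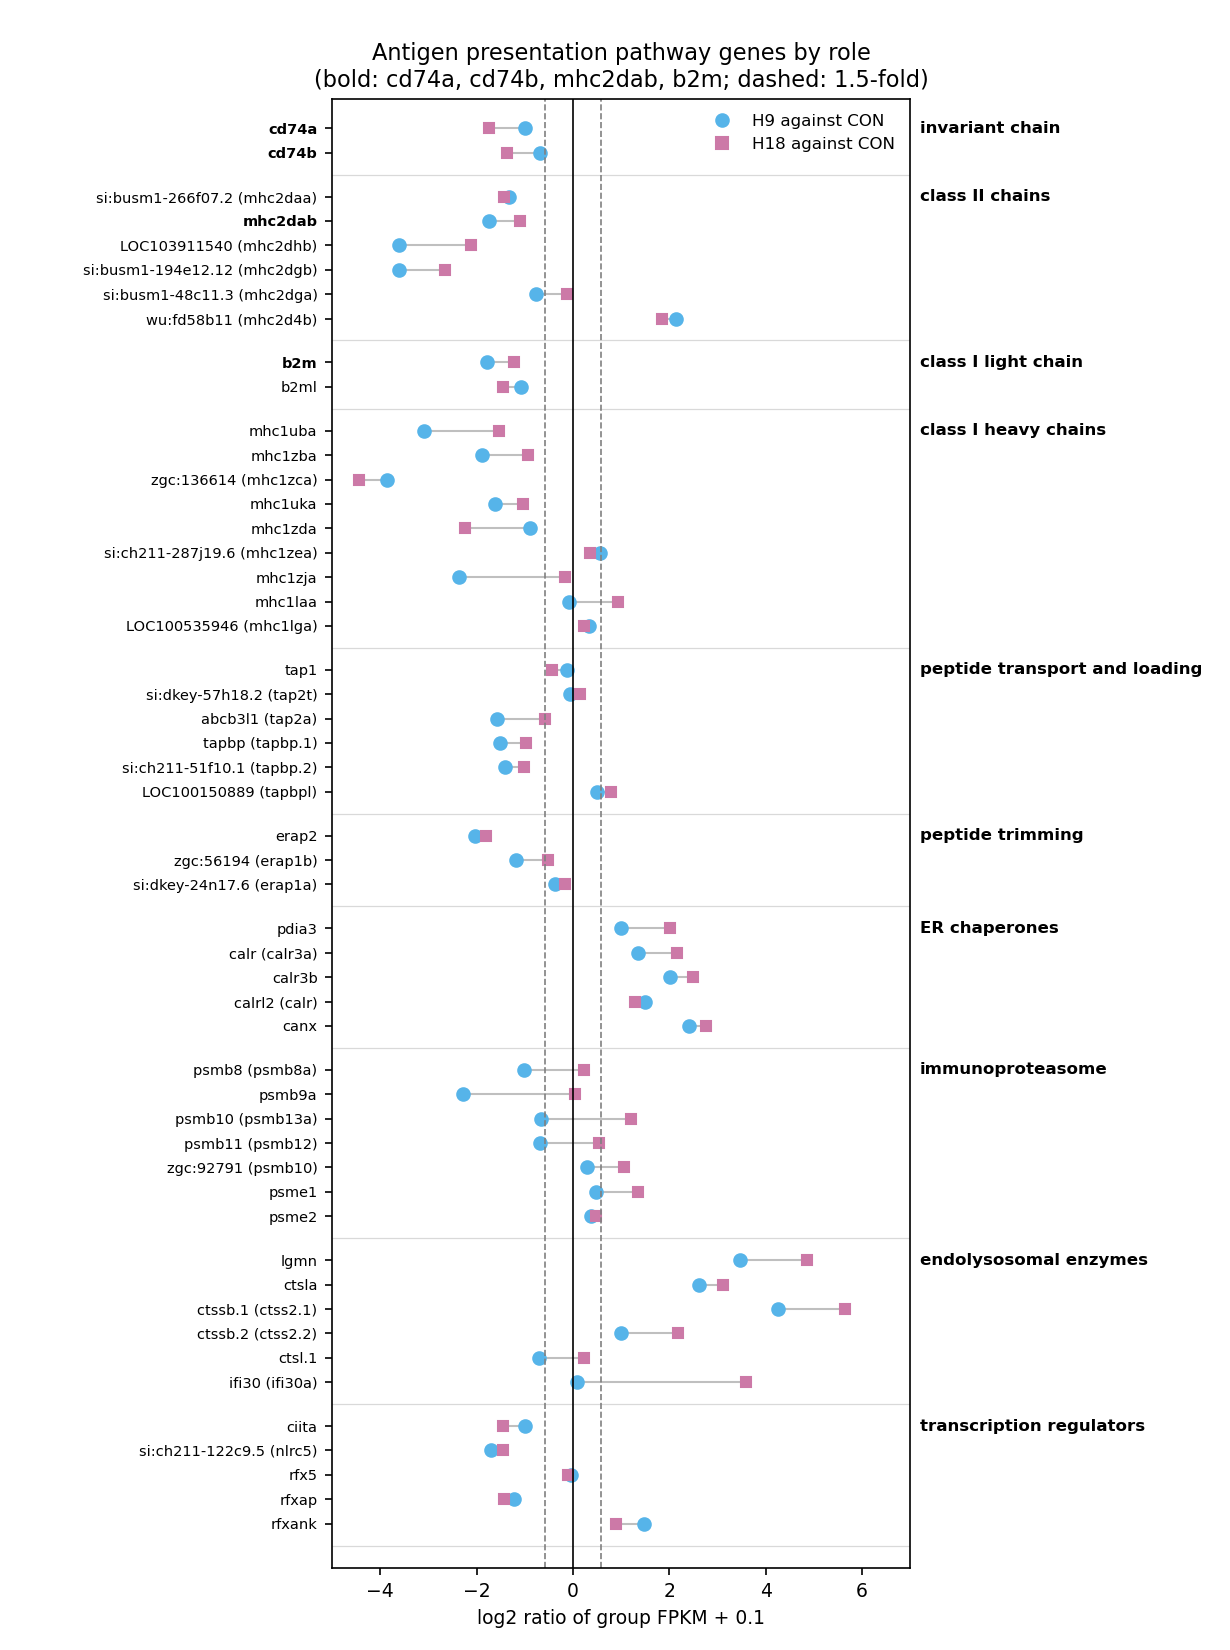
Log2 ratios of FPKM + 0.1 against CON for 51 features of the antigen presentation pathway, grouped by role, with H9 as circles and H18 as squares and the 1.5-fold limits dashed. Bold names are cd74a, cd74b, mhc2dab and b2m, and names in brackets are current RefSeq symbols. Chains of class I and class II lie mostly left of 0, the 5 ER chaperones lie right of 0, and so do the endolysosomal enzymes except ctsl.1 at H9.

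Most of the abundant class I heavy chains were lower after injury, as b2m was. Of 23 heavy chain features, 9 reached a mean of 1 FPKM, and of these 6 were lower and 0 higher than CON at H9, and 5 were lower and 1 higher at H18, where among all features 31.4% were lower and 34.9% higher at H9 and 34.7% lower and 32.8% higher at H18. The most abundant was mhc1uba on chromosome 19, a gene of the classical U lineage, with 66.2 FPKM in CON, 7.65 FPKM in H9 and 22.8 FPKM in H18. It shared the time course of b2m with a deeper minimum, 8.55-fold below CON. The Z lineage gene mhc1zba on chromosome 1 had 49.2, 13.2 and 25.7 FPKM, and mhc1uka on chromosome 19 had 8.02, 2.56 and 3.83 FPKM.

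Other heavy chains did not return toward CON. The feature zgc:136614 (mhc1zca) had 22.7 FPKM in CON, 1.47 FPKM in H9 and 0.951 FPKM in H18, and mhc1zda had 5.39, 2.85 and 1.06 FPKM. These lie on chromosome 1 beside mhc1zba and beside si:ch211-287j19.6 (mhc1zea), which had 5.10, 7.61 and 6.52 FPKM and was not lower in either group. The 4 Z lineage features of that stretch therefore differed from each other within 1 cluster. The remaining heavy chains with a mean of 1 FPKM were low, with mhc1zja at 1.63, 0.236 and 1.45 FPKM, mhc1laa at 0.953, 0.894 and 1.93 FPKM and LOC100535946 (mhc1lga) at 0.886, 1.14 and 1.06 FPKM.

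Zebrafish carry a 2nd light chain gene, b2ml, on chromosome 8 (50953262 to 50961527). Its level was 67.1 FPKM in CON, 31.7 FPKM in H9 and 24.5 FPKM in H18, lower at each step like the invariant chain genes and unlike b2m. The FPKM of b2m was 5.94 times that of b2ml in CON, 3.63 times in H9 and 6.92 times in H18. MHC chains and the pairs b2m and b2ml or cd74a and cd74b are families of related sequence that vary between fish, and the reads were short and single-end, with reads that map to several places shared out by CuffDiff. How such reads were divided within a family cannot be seen from the group values.

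Peptide transport and loading genes were partly lower. Tapasin (tapbp) had 6.77 FPKM in CON, 2.29 FPKM in H9 and 3.38 FPKM in H18, and its copy si:ch211-51f10.1 (tapbp.2) had 3.37, 1.20 and 1.62 FPKM. The transporter subunit abcb3l1 (tap2a) had 2.61, 0.803 and 1.72 FPKM, whereas tap1 had 5.66, 5.16 and 4.18 FPKM and si:dkey-57h18.2 (tap2t) had 3.25, 3.12 and 3.60 FPKM. The tapasin-related feature LOC100150889 (tapbpl) had 0.776, 1.14 and 1.42 FPKM and was higher at H18. Aminopeptidases of the endoplasmic reticulum trim peptides for class I. Of these, erap2 had 5.89, 1.35 and 1.62 FPKM, zgc:56194 (erap1b) had 5.31, 2.28 and 3.67 FPKM, and si:dkey-24n17.6 (erap1a) was within 1.5-fold of CON at 2.65, 2.01 and 2.34 FPKM.

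The chaperones of the loading complex that also fold other proteins were higher. The disulfide isomerase pdia3 had 31.2 FPKM in CON, 62.6 FPKM in H9 and 127 FPKM in H18. Calnexin (canx) had 6.82, 36.5 and 46.5 FPKM, calr (calr3a) had 12.8, 33.0 and 57.3 FPKM and calr3b had 7.28, 29.8 and 41.6 FPKM. Over the class I presentation list without b2m, 23 features reached 1 FPKM, of which 13 were lower and 5 higher at H9 (median log2 ratio -1.08) and 10 were lower and 6 higher at H18 (median -0.52). Over all features the medians were 0.09 and -0.01, with 31.4% lower and 34.9% higher at H9 and 34.7% lower and 32.8% higher at H18. The 5 higher at H9 were the chaperones, pdia3, canx and 3 calreticulin features. When limited to features with a mean of at least 5 FPKM, where the chaperones weigh more, the same list had medians of the opposite sign, 0.57 at H9 and 0.35 at H18.

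Immunoproteasome subunits replace the constitutive catalytic subunits under interferon gamma. In the deposited values, those encoded on chromosome 19 were lower than CON at 9 hpi and at or above CON at 18 hpi. Under the rescaling on summed FPKM, psmb8 and psmb9a were not above CON at 18 hpi. The gene psmb8 had 9.45 FPKM in CON, 4.62 FPKM in H9 and 11.1 FPKM in H18. For psmb9a the values were 5.69, 1.09 and 5.85 FPKM, for psmb10 (psmb13a) 4.40, 2.75 and 10.2 FPKM and for psmb11 (psmb12) 4.76, 2.91 and 6.99 FPKM. The activator subunit psme1 was higher at 18 hpi, with 8.89, 12.5 and 22.9 FPKM. The chromosome 4 feature zgc:92791, with the current symbol psmb10, had 7.59, 9.35 and 16.0 FPKM and was likewise higher at H18 only. In the immunoproteasome list 9 features reached 1 FPKM, of which 4 were lower and 2 higher at H9 (31.4% and 34.9% of all features), and 0 were lower and 4 higher at H18 (34.7% and 32.8%). The 2 higher at H9 were psme3 (7.29, 15.1 and 9.29 FPKM) and psmb11b (0.479, 1.56 and 1.22 FPKM). The 4 lower at H9 became 2 with a pseudocount of 1, at 2-fold or under the rescaling on summed FPKM. The constitutive catalytic subunits psmb5, psmb6 and psmb7 were within 1.5-fold of CON at H9 and were higher at H18, with psmb5 at 16.5 FPKM in CON, 22.1 FPKM in H9 and 33.3 FPKM in H18, psmb6 at 23.6, 23.6 and 50.9 FPKM and psmb7 at 25.6, 29.6 and 53.5 FPKM.

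The immunoproteasome genes psmb8, psmb9a, psmb10 (psmb13a) and psmb11 lie in 1 stretch of chromosome 19 (GRCz10, 7119783 to 7212442), the zebrafish class I region. With them lie mhc1uka, mhc1uba, tapbp, si:ch211-51f10.1 and abcb3l1. All 9 features of the stretch were lower than CON at H9 by at least 1.5-fold (31.4% of all features), with a median log2 ratio of -1.53. With a pseudocount of 1, at 2-fold or under the rescaling 7 of the 9 were lower, without psmb10 and psmb11. At H18, 4 of the 9 were still lower (34.7% of all features), these being tapbp, mhc1uka, si:ch211-51f10.1 and mhc1uba. The only higher one was psmb10 (32.8% of all features). Under the rescaling or with a pseudocount of 0.01, abcb3l1 was lower at H18 too, which made 5 of the 9. The log2 ratio of H18 to CON was above 0 for 4 of the 9. Under the rescaling it was above 0 for 2, psmb10 and psmb11. From H9 to H18 the log2 ratio was above 0 for each of the 9, with a median of 1.24, and 6 were higher by at least 1.5-fold (15.5% of all features). Under the rescaling that median was 0.79 and si:ch211-51f10.1 was below 0, at -0.02. The adjoining gene daxx, which encodes a histone chaperone, was higher after injury (0.401, 3.21 and 3.55 FPKM). Neither b2m, mhc2dab nor the invariant chain genes lie in this region, and b2m and mhc2dab had the same order of groups as mhc1uba, tapbp and mhc1uka, with H9 lowest and CON highest.

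**Figure D3:**
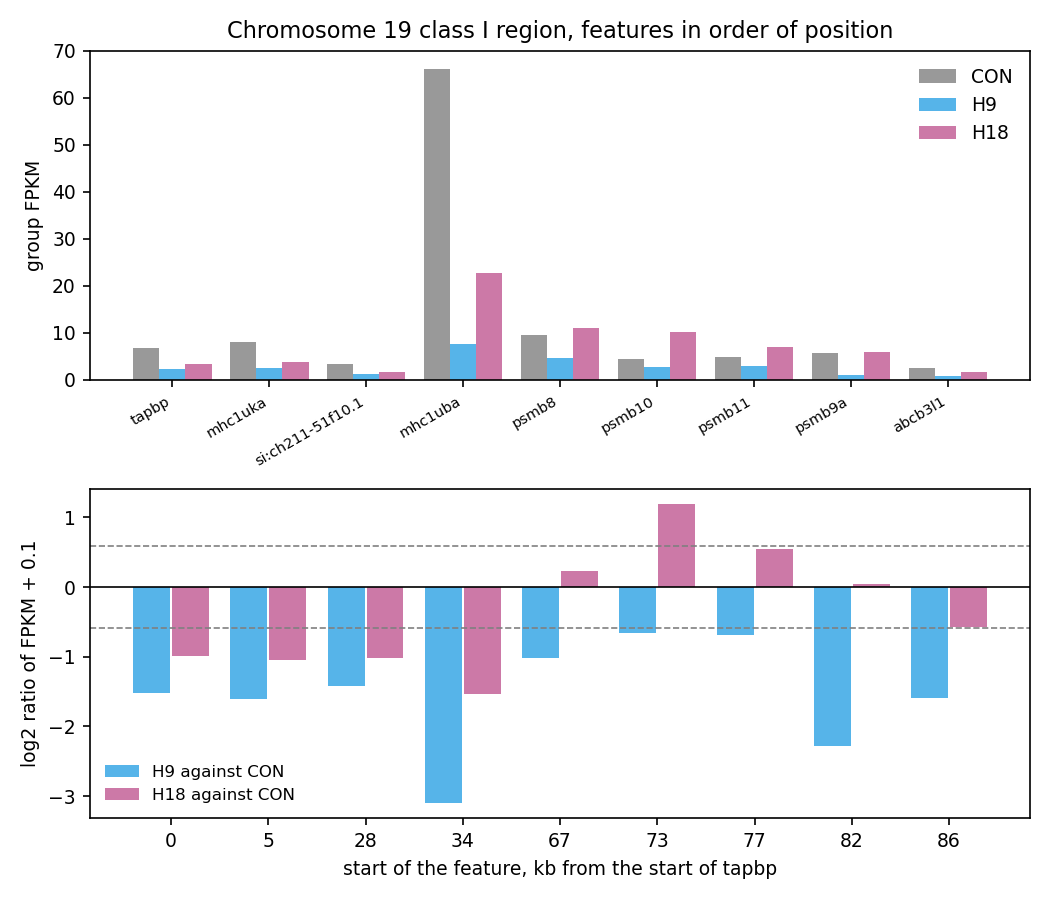
Features of the chromosome 19 class I region in order of position (evenly spaced, with the distance from the start of tapbp in kb under the lower panel), as group FPKM in CON, H9 and H18 (upper) and as log2 ratios of FPKM + 0.1 against CON (lower, 1.5-fold dashed). All 9 are lower at H9, psmb10 and psmb11 only just past the dashed line, and at H18 the 4 psmb genes are at or above CON while tapbp, mhc1uka, si:ch211-51f10.1 and mhc1uba are below it.

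Transcription regulators of the pathway were expressed at low levels. The class II transactivator ciita had 1.41 FPKM in CON, 0.655 FPKM in H9 and 0.450 FPKM in H18. Its mean of 0.839 FPKM is under the filter, and its log2 ratio of H18 to H9, -0.46, is under 1.5-fold. The class I transactivator nlrc5 (si:ch211-122c9.5) had 2.58, 0.725 and 0.880 FPKM. Its log2 ratio of H18 to H9 was 0.25, and the rescaling turned it to -0.15. Of the RFX complex, which binds class II promoters together with CIITA, rfx5 had 1.87, 1.82 and 1.75 FPKM, rfxap had 3.24, 1.34 and 1.14 FPKM and rfxank had 1.17, 3.45 and 2.27 FPKM. The order of groups of cd74a and cd74b was shared by ciita, rfxap and rfx5 (within 1.5-fold of CON), and not by mhc2dab.

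In the interferon gamma response list few features were lower than CON. Of its 16 features with a mean of 1 FPKM, 7 were higher and 1 lower at H9 (median log2 ratio 0.44), where 34.9% of all features were higher and 31.4% lower. At H18, 5 were higher and 1 lower (median 0.37), against 32.8% and 34.7% of all features, and the rescaling gave 3 lower with a median of 0.12. The kinase gene jak1 had 10.7 FPKM in CON, 33.2 FPKM in H9 and 22.2 FPKM in H18, and irf1b, a factor induced by interferon gamma, had 4.85, 12.7 and 7.28 FPKM. The signal transducer stat1a had 15.3, 15.7 and 10.8 FPKM, and the lower one was stat1b, with 2.07, 0.653 and 0.960 FPKM. The ligand itself was near the limit of the tables, with ifng1-2 at 0.338 FPKM in CON, listed at 0 in H9 and at 0.629 FPKM in H18, and ifng1-1 listed at 0 in all groups.

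Markers of leukocytes in general, of macrophages and of neutrophils were higher after injury, when cd74a, cd74b and mhc2dab were lower. Of 11 pan-leukocyte symbols 9 were found, none at 0, and 9 of 9 were higher at both times. Their sum was 52.9 FPKM in CON, 249 FPKM in H9 and 276 FPKM in H18. Of the macrophage markers 13 of 14 were higher at H9 and 13 of 14 at H18, with a sum of 70.3, 336 and 493 FPKM. The largest macrophage feature at H9 and H18 was grn1 (6.46, 118 and 122 FPKM). Neutrophil markers summed to 30.3, 174 and 79.2 FPKM, with 7 of 8 features higher at H9 and 8 of 8 at H18. That sum was mostly srgn in each group (21.2, 93.4 and 41.5 FPKM). The neutrophil feature not higher at H9 was lyz (0.723, 0.920 and 1.65 FPKM). Beside the counts of these lists, 34.9% of all features were higher at H9 and 32.8% at H18.

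The 4 genes were lower after injury and the leukocyte genes ptprc and mpeg1.1 were higher. By arithmetic, their ratios therefore differed between groups by more than the 4 genes alone. The FPKM of cd74a was 63.2 times that of ptprc (CD45, carried by all leukocytes) in CON, 9.38 times in H9 and 5.36 times in H18. Against mpeg1.1, a perforin of macrophages, cd74a was 36.4, 8.94 and 1.96 times as abundant, and cd74b was 23.7, 7.28 and 1.65 times. For mhc2dab over ptprc the ratio was 9.24, 0.804 and 1.22, and for b2m over ptprc it was 158, 13.6 and 19.1. The part of changing leukocyte numbers or types in the levels of the 4 genes was not tested.

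Most lymphocyte and dendritic cell markers were under a mean of 1 FPKM. The 11 T cell features summed to 13.3 FPKM in CON, 5.29 FPKM in H9 and 5.65 FPKM in H18, and 2 of them reached a mean of 1 FPKM. These were lck, a kinase of the T cell receptor, at 3.17, 0.178 and 0.257 FPKM and the costimulatory receptor cd28, within 1.5-fold of CON at 3.14, 2.34 and 2.73 FPKM. Among the features under that mean, cd8a had 0.769, 0.0298 and 0.160 FPKM and cd4 had 1.17, 0.181 and 0.345 FPKM. For zap70 the values were 0.962, 0.095 and 0.358 FPKM and for runx3 1.34, 0.213 and 0.0647 FPKM. The il7r feature had 0.550, 0.356 and 0.343 FPKM, and tcf7 had 0.845, 0.670 and 1.30 FPKM. LOC101886406, also annotated as cd28, had 0.0412 and 0.906 FPKM before it was listed at 0 in H18. The trac feature had 0.0402 and 0.316 FPKM and was listed at 0 in H18. The cd8b feature (si:dkey-184p9.9) was listed at 0 in H9. The 9 B cell features summed to 4.98, 14.9 and 9.83 FPKM, and 3 of them reached a mean of 1 FPKM. Of these, cd22 had 0.222, 7.30 and 4.10 FPKM and blnk had 1.12, 4.73 and 4.62 FPKM, each higher than CON at both times. The receptor component cd79a had 2.25, 1.90 and 0.955 FPKM and was lower at H18. Under that mean, cd37 (zgc:171713) had 0.232, 0.652 and 0.107 FPKM and pax5 had 0.0192, 0.246 and 0.0411 FPKM. Of the immunoglobulin features, ighd (LOC101883016) had no more than 0.0542 FPKM in any group. The light chain feature LOC798043, with the current symbol igic1s1, had 0.920 FPKM in CON and 0.0200 FPKM in H9 and was listed at 0 in H18. The feature with igic1s1 as its table symbol had 0.0541 FPKM in CON and was listed at 0 in H9 and H18, and cd79b was listed at 0 in H18. The 10 dendritic cell features summed to 22.5, 23.0 and 21.7 FPKM, none was at 0 in any group, and 4 reached a mean of 1 FPKM. Of these the factor irf8 was higher at both times (4.74, 10.2 and 13.4 FPKM), id2b was lower at both (6.99, 0.929 and 0.570 FPKM), and id2a (6.06, 8.56 and 5.11 FPKM) and zbtb46 were within 1.5-fold of CON. The dendritic cell sum was mostly irf8, id2a and id2b. Under a mean of 1 FPKM, ccr7 had 1.51, 0.209 and 0.0197 FPKM, 5.23-fold and 13.5-fold below CON. The irf4a feature had 0.626, 0.683 and 0.0588 FPKM, and irf4b had 0.444, 0.355 and 0.1998 FPKM. For flt3 the values were 0.221, 0.264 and 0.132 FPKM. The batf3 feature had 0.4301, 0.596 and 0.414 FPKM, and xcr1a.1 had 0.242, 0.114 and 0.6998 FPKM. Whether lymphocytes and dendritic cells contribute to the levels of cd74a, cd74b and mhc2dab was not tested.

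**Figure D4:**
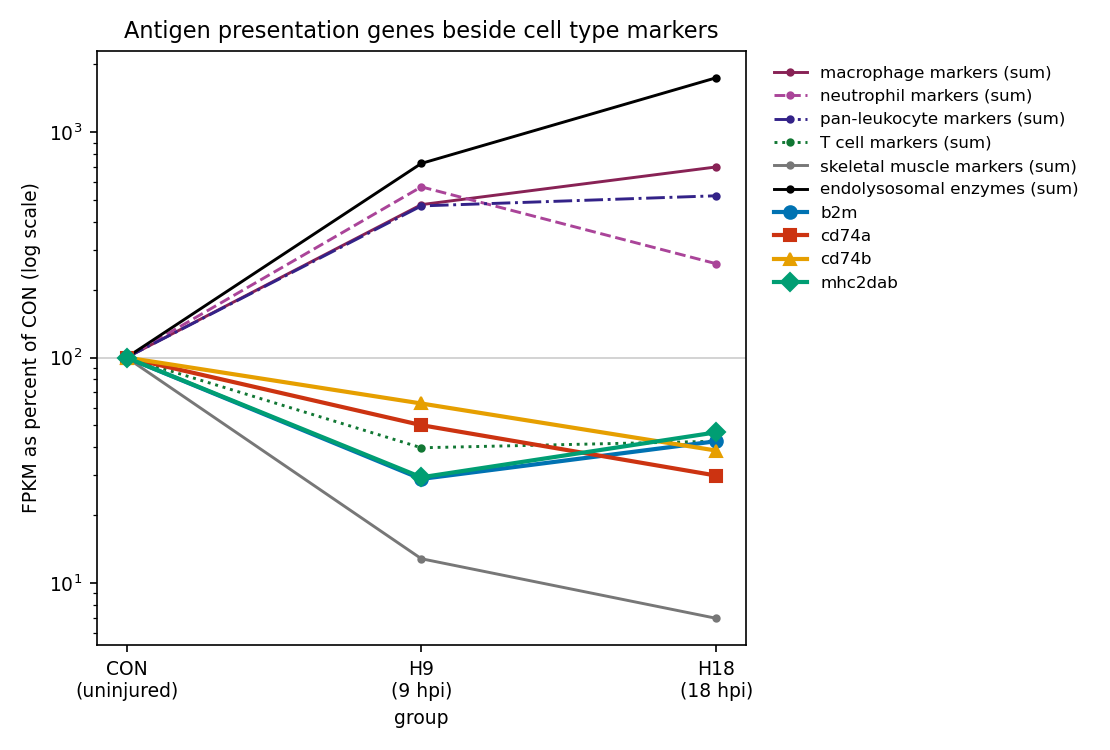
FPKM as percent of CON (log scale) in CON, H9 and H18 for b2m, cd74a, cd74b and mhc2dab (thick lines) and for the summed FPKM of marker lists and of the 6 endolysosomal enzymes. The macrophage sum is at 477% and 701% of CON, whereas the 4 genes lie between 28.9% and 62.5% of CON. The T cell sum (39.8% and 42.5%) lies in that range, with 2 of its 11 features reaching 1 FPKM. The skeletal muscle sum (12.8% and 6.96%) lies below it. Not drawn are the sums for epidermis (50.9% and 25.7%), glia (34.8% and 20.8%) and retina (21.8% and 2.02%), which were lower than CON too. In the retina list 1 of 7 features reached 1 FPKM.

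The neighbours of the 4 genes on their chromosomes were mixed. Within 50 kb of b2m, dera was higher after injury (1.41, 7.24 and 3.39 FPKM), as was hmga2, a chromatin protein gene of growing tissue (0.248, 6.01 and 2.95 FPKM). The ribosomal protein gene rps14, beside cd74b, had 401 FPKM in CON, 511 FPKM in H9 and 1061 FPKM in H18. Also beside cd74b, LOC101885612 was lower at H9 (19.56, 8.90 and 13.4 FPKM), and ndst1 (ndst1b) was lower at H18 (2.25, 1.54 and 1.43 FPKM). Beside cd74a, LOC100329944 (ndst1a) was lower (4.82, 0.464 and 0.423 FPKM) and slc35a4 was within 1.5-fold of CON (13.8, 10.7 and 11.2 FPKM). The class II α chain beside mhc2dab, described above, was lower than CON by at least 1.5-fold at both times, as was ndst1a.

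The features most like each gene in the pair of log2 ratios against CON were not in the presentation lists or among the MHC chains. They are pop7, si:dkey-288i20.2 and stard9 for cd74a, si:dkey-102f14.5, LOC568201 and slco3a1 for cd74b, LOC101885187, LOC103911012 and dact1 for mhc2dab, and LOC559461, tlr3 and zgc:165597 for b2m. Their distances were between 0.0066 and 0.050 in log2 units, over 2 ratios that share CON. Among 13443 other features, 85 lay within 0.2 of cd74a, 133 of cd74b, 64 of mhc2dab and 70 of b2m, so a profile of 3 group values is shared by many transcripts. Among the 4 genes themselves b2m and mhc2dab were nearest to each other, at 0.14, cd74a and cd74b were 0.49 apart, and the other pairs were between 0.94 and 1.12 apart.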

How the data were processed

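RNA of 14 libraries (CON 4, H9 5, H18 5) was measured by stranded sequencing after ribosomal RNA depletion. Per the labels and the methods of the study, the authors mapped the short single-end reads to GRCz10 with TopHat2 2.0.13 and Bowtie2 2.2.1, limiting intron length, and used Cuffdiff 2.2.1 with multi-read correction and upper-quartile normalization. The FPKM values deposited by the authors are 1 per group and feature. The tables also hold the authors' fold changes, p-values, q-values and GO terms, which were not used. A count table was not used, because its 14 columns could not be matched to libraries by name, so the depth per library is not given and the planned count tests were not run.

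Log2 ratios and folds between groups were computed on FPKM + 0.1, which understates the change of low features. A feature was counted as higher or lower at 1.5-fold among the 13447 with a mean of at least 1 FPKM. These are descriptions of size, not tests. The 4 genes and all lists were chosen with earlier results of these data known. Named are the 4 genes, MHC chains, up to 8 features of highest mean FPKM per list, and the 3 nearest features per gene (Euclidean distance of both ratios against CON). Other genes named (low list members, chromosomal neighbours, markers) were chosen after their values were seen, as were the role groups. Lists were matched by table symbol or, through the Entrez identifier, by current RefSeq symbol (GRCz12tu table, 24851 features matched). mhc2dab had no entry there. Starts were converted to count from 1. The calling and likeness steps were run on simulated data with large planted changes and an exact planted copy of a profile. This checks the code, and not how well real differences are recovered. Python 3.11.15, numpy 2.4.6, pandas 2.3.3 and matplotlib 3.10.9 were used.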

Additional observations from a re-analysis of the deposited data

How the results depend on the processing

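No paired analysis was possible because the deposited group values carry no replicates. For the same reason DESeq2, its size factors, the low count filter, leaving out each replicate, the replicate block and the fit of 2 groups alone were not run, and depth could not be used. Of the alternatives, 4 can change a ratio of the 4 genes (both pseudocounts, centring and rescaling). Under these, the ratios against CON were below 0 in 32 of 32 values, which could not have come out otherwise. A pseudocount cannot change the sign of a ratio. The largest upward shift against CON, 0.19, is smaller than the distance from 0 of the nearest ratio, -0.68 for cd74b at H9. The count is therefore no support. Between H9 and H18, cd74a and cd74b gave the 8 of 16 values below 0. Rescaling on summed FPKM came before the pseudocount was added, so it shifts features of low FPKM less. For the others it shifts log2 ratios by about 0.19 for H9 against CON, -0.26 for H18 against CON and -0.45 for H18 against H9. It gave -0.49 for cd74b at H9, and 0.21 for mhc2dab between H9 and H18, so that 0 of the 4 were higher, with 1039 features higher and 6666 lower. Centring on the median gave 0.70 for b2m and -0.55 for cd74b between H9 and H18, so that 2 were higher and 1 lower. At 2-fold, 2 of the 4 genes were lower at H9, and 0 higher and 0 lower between H9 and H18, with 1072 features higher and 1519 lower. A pseudocount of 1 left 2175 features lower between H9 and H18 (3322 with 0.1). Without a filter, 9581 features were higher and 7816 lower at H9, 8233 and 9013 at H18, and 4929 and 8215 between H9 and H18. With a mean of at least 5 FPKM, these were 1790 and 1414, 1759 and 1537, and 671 and 1052, and the class I presentation list median at H9 turned from -1.08 to 0.57 and at H18 from -0.52 to 0.35. The filters change the number of features counted by construction. Matching lists by table symbols alone, an alternative added after seeing the data, took the class I list median at H18 from -0.52 to -0.68, and recomputing the chromosome 19 features and nlrc5 was added likewise.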

Other observations

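Endothelial cells, which carry class I at high levels in mammals, were represented by 7 markers that summed to 29.1 FPKM in CON, 44.7 FPKM in H9 and 24.9 FPKM in H18. Of the 6 with a mean of 1 FPKM, 4 were higher than CON at H9 (34.9% of all features), among them the receptor gene kdrl (9.31, 16.8 and 8.52 FPKM). At H18, 1 was higher (32.8% of all features) and 1 lower (34.7%). Epidermal markers summed to 82.2, 41.9 and 21.1 FPKM, with 5 of 5 features of that level lower at both times (31.4% of all features at H9 and 34.7% at H18). Erythrocyte markers summed to 491, 606 and 340.1 FPKM. The guanylate binding protein gene gbp1, induced by interferon gamma in mammals, had 1.72, 4.99 and 10.09 FPKM, in the opposite order of groups to cd74a and cd74b.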
